A study of Oryza sativa with 12 samples.

Results

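Unannotated transcripts are loci that a read assembly reports although the gene annotation gives them no name. In these rice libraries 2467 of 39718 rows were of this kind, each known only by an assembly identifier of the form XLOC followed by a number. The rows described here are the 124 of them whose mean level differed between drought and water by at least 1 on the log2(FPKM + 1) scale, upwards or downwards, in at least 1 of 2 cultivars. FPKM is a fragment number divided by transcript length and by the number of mapped fragments. A row also had to be listed in at least 3 libraries of each cultivar and to reach a mean of 1 FPKM in at least 1 group, which 1046 unannotated rows did. The 124 rows were therefore chosen by their drought changes, which are given below as a description and without a test.

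The drought groups were 21-day-old seedlings of the cultivar N22, described by the submitters as drought tolerant, after 6 h in 20% polyethylene glycol (PEG) 6000, and seedlings of IR64, described as drought sensitive, after the same treatment. Each was set against 21-day-old seedlings of the same cultivar kept for 6 h in water purified by reverse osmosis, so that there were 4 groups of 3 libraries. PEG, a large polymer, holds water back from the roots, and the treatment is called drought here. The design text speaks of biological replicates but does not say what was separate between them, and the p-values rest on the spread among the libraries, which may in part be technical. The labels name seedlings and no organ. Transcripts of shoots (the Rubisco small subunit gene RBCS2) and of roots (the silicon transporter genes Lsi1 and Lsi2, and RCc3) were present in every library. The root gene AMT1;2, however, was low, at 0.093 to 0.743 FPKM in N22 and 0.568 to 2.33 FPKM in IR64. The values are taken here as those of mixed organs. In such bulk samples fewer cells of a type and less RNA per cell cannot be told apart.

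An assembly guided by a reference joins overlapping aligned reads into transcripts and keeps those that lie outside the annotated genes. Such rows can be long non-coding RNAs, which are transcribed and often spliced but carry no long open reading frame, or unannotated coding genes, pieces of untranslated regions, antisense transcripts, or stretches of repeats. In plants under water deficit a few long non-coding RNAs are known to act on neighbouring genes or on small RNAs, and for most the role is unknown. The deposited values give neither coordinates, strand nor sequence for these rows, so no product, class or role is assigned to any of them here.

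Among the 1046 unannotated rows that were listed and abundant enough, 11.9% passed the change minimum, against 14.2% (3174) of 22302 named rows held to the same minimums. The rows were mostly of low level. The median of their means over the 12 libraries was 3.32 FPKM, against 2.26 FPKM for all 1046 unannotated rows and 10.7 FPKM for the named ones. A mean of at least 10 FPKM was reached by 23 rows and of at least 100 FPKM by 5. All 124 passed the filter for the fits across loci, and 76 were listed in all 12 libraries. The remaining 48 were missing from 1 to 6 libraries, where they count as 0, although a 0 may stand for an estimate that failed.

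Raised rows outnumbered lowered ones, 84 against 40. Of the raised rows, 29 passed the minimum in both cultivars, 36 in N22 only and 19 in IR64 only. Of the lowered rows, 6 passed it in both, 16 in N22 only and 18 in IR64 only. No row passed it in opposite directions in the cultivars. The median raised row had group means of 5.16 FPKM in N22 under drought and 0.873 FPKM in N22 in water, and of 3.78 FPKM in IR64 under drought and 0.821 FPKM in IR64 in water. The median lowered row had 2.80 FPKM in N22 under drought and 7.30 FPKM in N22 in water, and 3.28 FPKM in IR64 under drought and 9.39 FPKM in IR64 in water.

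**Figure D1:**
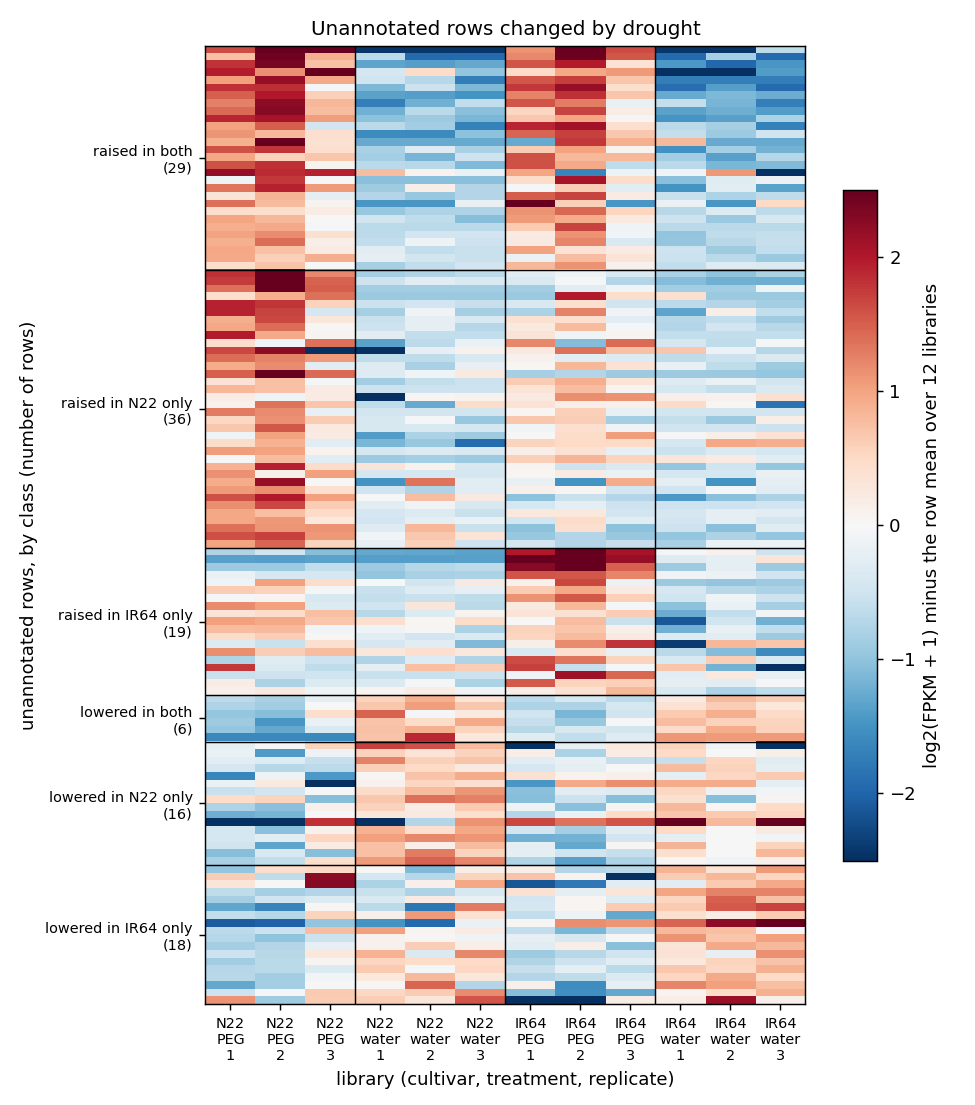
Level of each of the 124 unannotated rows (lines, grouped by class with the number of rows) in each of the 12 libraries (columns), as log2(FPKM + 1) minus the mean of that row over the libraries, with the colour scale clipped at 2.5 either way. Red marks libraries above the row mean and blue those below; in the 29 rows raised in both cultivars the drought columns are redder than the water columns, and the third drought column of each cultivar is often the palest of the 3.

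The 3 drought and 3 water libraries did not overlap for most of these rows. Of the 65 rows raised past the minimum in N22, 58 had every drought library above every water library, and of the 48 raised in IR64, 39 did. Of the 22 rows lowered past the minimum in N22, 18 had every drought library below every water library, and of the 24 lowered in IR64, 22 did. Over all 124 rows the drought libraries stood wholly above the water libraries in 66 rows in N22 and 55 in IR64, and wholly below in 23 rows in N22 and 28 in IR64. Over the 24276 loci fitted, the corresponding shares were 25.5% above and 26.1% below in N22, and 22.3% above and 23.2% below in IR64. In the limma fit over all loci (adjusted p of at most 0.05 and a change of at least 1), 57 of the rows were called raised and 16 lowered in N22, and 40 raised and 16 lowered in IR64. The same fit called 6.55% of all loci raised and 5.17% lowered in N22 (11.7% either way), and 4.35% raised and 4.02% lowered in IR64 (8.37% either way). Because these contrasts chose the rows, nothing is read from those counts.

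For most raised rows the third drought library of a cultivar stood closer to water than the other two. Over the 65 rows raised in N22, the median change against the mean of the water libraries was 1.57, 1.84 and 1.05 (log2) in drought libraries 1, 2 and 3, and library 3 had the smallest change in 49 rows. Over the 48 rows raised in IR64 the medians were 1.71, 1.98 and 1.07, and library 3 had the smallest change in 31 rows. Over the 22 rows lowered in N22 they were -1.53, -1.49 and -0.82 (library 3 smallest in 14), and over the 24 lowered in IR64 they were -1.23, -1.27 and -1.14 (library 3 smallest in 10). RAB16A, a dehydrin gene induced by abscisic acid, also had its lowest drought value in library 3, with 2358, 3502 and 949 FPKM in N22 under drought, against 4.26, 7.55 and 1.43 FPKM in N22 in water. In IR64 it had 455, 729.7 and 172 FPKM under drought and 1.86, 1.8 and 0.339 FPKM in water. Its water value was thus also lowest in library 3 of each cultivar. What sets the third libraries apart was not tested; without them the rule took 179 rows in place of 124.

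The rows raised in both cultivars had changes of 1.03 to 4.97 in N22 (median 1.92) and of 1.02 to 3.58 in IR64 (median 1.75), and every drought library lay above every water library in 29 of 29 rows in N22 and in 25 of 29 in IR64. The row with the highest mean change, XLOC_045113, had 15.8, 49.4 and 35.2 FPKM in N22 under drought (libraries 1, 2 and 3, an order kept throughout) and was listed in no N22 water library. In IR64 it had 10.8, 29 and 15.8 FPKM under drought and 0, 0 and 2.48 FPKM in water. It was thus listed in all 6 drought libraries and in 1 of 6 water libraries, and no fold is given against a group at 0. Near it in pattern was XLOC_054074, with 5.42, 19.8 and 6.19 FPKM in N22 under drought and 1.44, 0 and 0 FPKM in N22 in water, and with 7.82, 19.9 and 10.2 FPKM in IR64 under drought and 0, 1.16 and 0 FPKM in IR64 in water. It too was listed in every drought library and in only 2 water libraries, and the groups did not overlap in either cultivar.

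XLOC_020175 was listed everywhere, so that none of its water values is a 0. It had 18.1, 27.4 and 8.14 FPKM in N22 under drought, against 1.19, 1.13 and 1.27 FPKM in N22 in water. In IR64 the values were 15.3, 20.7 and 6.07 FPKM under drought and 1.04, 0.416 and 1.01 FPKM in water. All 6 drought libraries were above all 6 water libraries, with the third drought library lowest in each cultivar. Its changes of 2.96 in N22 and 2.91 in IR64 were nearly the same size.

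The most abundant raised rows gave a mixed picture. XLOC_005183 had 814, 674 and 505 FPKM in N22 under drought and 126, 125 and 185 FPKM in N22 in water. IR64 seedlings had 1031, 1242 and 602 FPKM under drought and 248, 201 and 265 FPKM in water. The drought libraries of both cultivars lay above all water libraries, and IR64 was above N22 in each treatment's mean. XLOC_035497 had 445, 251 and 789.6 FPKM in N22 under drought and 82.6, 156 and 56.7 FPKM in N22 in water, and 157, 222 and 235 FPKM in IR64 under drought and 14.8, 11.4 and 42 FPKM in IR64 in water. Its groups did not overlap within a cultivar, and here the third drought libraries were the highest. XLOC_010326 had 529, 422 and 441 FPKM in N22 under drought, against 197, 122 and 103 FPKM in N22 in water. In IR64, however, it had 229, 35.8 and 105 FPKM under drought and 108, 245 and 0 FPKM in water, groups that overlap. Its place among the rows raised in both cultivars rests in IR64 on water library 3, which did not list it.

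**Figure D2:**
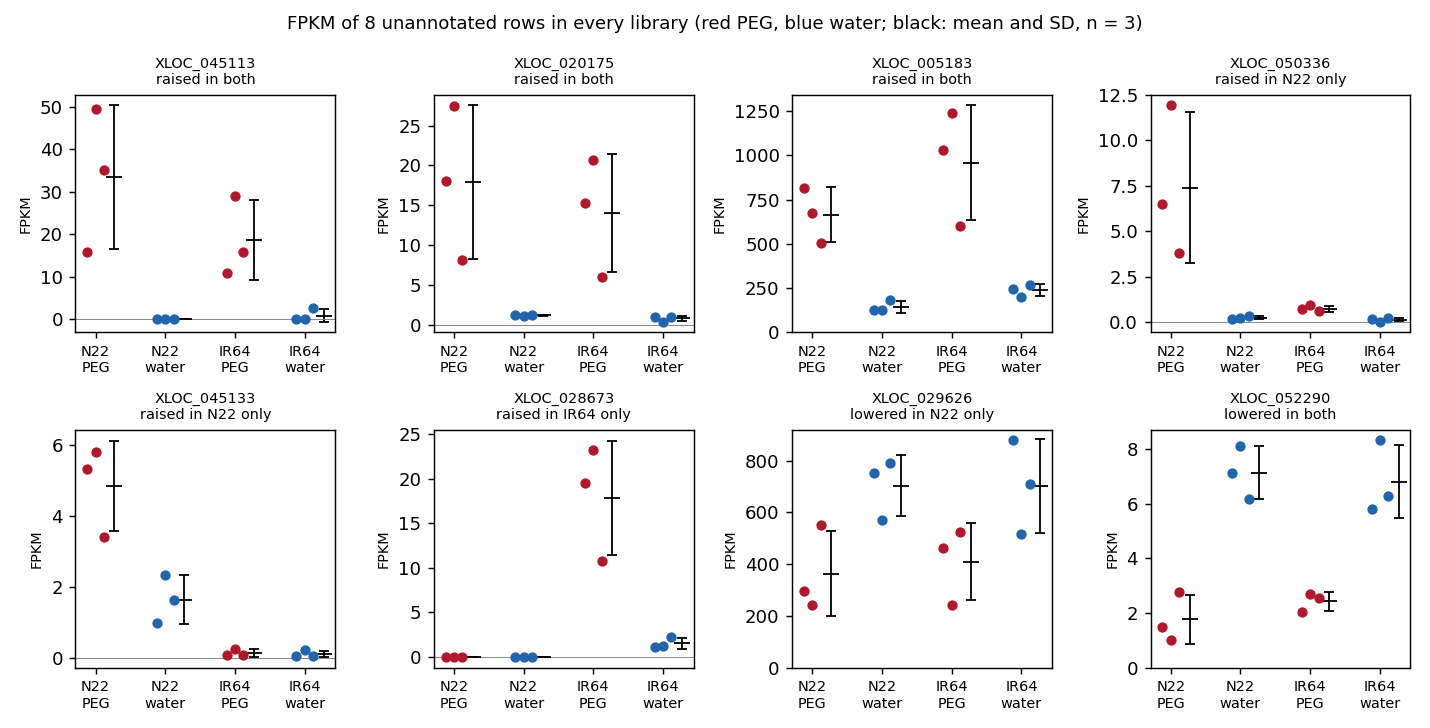
FPKM of 8 unannotated rows (panels) in every library of N22 under PEG, N22 in water, IR64 under PEG and IR64 in water; red points are PEG libraries 1 to 3 from left to right, blue points water libraries, and black marks the group mean and SD (n = 3). XLOC_020175 and XLOC_005183 are high under PEG in both cultivars, XLOC_050336 and XLOC_045133 stand out in N22 under PEG, XLOC_028673 in IR64 under PEG, and XLOC_052290 is high in water in both cultivars.

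Among the 36 rows raised in N22 only, the N22 changes ran from 1.03 to 2.76 (median 1.24) and the IR64 changes from -0.22 to 0.99 (median 0.58). The class is set by a minimum in each cultivar and not by a test of the difference between them. In 16 of the 36 rows the IR64 drought libraries also lay wholly above the IR64 water libraries, and in 0 wholly below. XLOC_050336 was one of them, with 6.49, 11.9 and 3.83 FPKM in N22 under drought and 0.195, 0.247 and 0.341 FPKM in N22 in water, and 0.739, 0.937 and 0.615 FPKM in IR64 under drought and 0.2, 0.0485 and 0.218 FPKM in IR64 in water. Its IR64 values thus also separated by treatment, at a level under 1 FPKM.

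XLOC_007452 had 9.16, 17.7 and 7.48 FPKM in N22 under drought, against 1.12, 1.51 and 1.32 FPKM in N22 in water. Its IR64 values were 1.32, 1.97 and 0.819 FPKM under drought and 0.423, 0.313 and 0.295 FPKM in water. The groups did not overlap in either cultivar, and the level in N22 water was close to that in IR64 drought. XLOC_045103 was listed in no N22 water library and had 3.73, 11.7 and 4.24 FPKM in N22 under drought. IR64 libraries gave 0, 0.518 and 0.756 FPKM under drought and 0, 0 and 0.704 FPKM in water, with overlapping groups.

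The 19 rows raised in IR64 only had IR64 changes of 1.02 to 2.93 (median 1.23) and N22 changes of -0.11 to 0.91 (median 0.52). In 8 of them the N22 drought libraries also lay wholly above the N22 water libraries. The 3 rows with the largest IR64 change were low in N22. XLOC_028673 had 0.0128, 0 and 0.0235 FPKM in N22 under drought and 0, 0 and 0.0112 FPKM in N22 in water, but 19.6, 23.2 and 10.8 FPKM in IR64 under drought and 1.06, 1.22 and 2.25 FPKM in IR64 in water. XLOC_026983 had 0, 0 and 0.214 FPKM in N22 under drought and 0, 0.142 and 0.191 FPKM in N22 in water, and 8.03, 13.7 and 4.26 FPKM in IR64 under drought and 0, 0.591 and 0 FPKM in IR64 in water. XLOC_049594 had 0.507, 0.804 and 0.214 FPKM in N22 under drought and 0.0538, 0.0388 and 0 FPKM in N22 in water, and 9.13, 14.7 and 9.68 FPKM in IR64 under drought and 1.46, 1.72 and 0.773 FPKM in IR64 in water. In all 3 rows the IR64 drought libraries exceeded every other library, and N22 stayed below 1 FPKM throughout. XLOC_049594 was one of the 8 rows whose N22 drought libraries also lay wholly above the N22 water libraries, at an N22 change of 0.53.

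The lowered rows were the smaller set. The 6 rows lowered in both cultivars had changes of -2.56 to -1.09 in N22 (median -1.44) and of -1.49 to -1.07 in IR64 (median -1.16). XLOC_052290 was one of them, with 1.5, 1.02 and 2.77 FPKM in N22 under drought and 7.11, 8.11 and 6.17 FPKM in N22 in water, and 2.03, 2.68 and 2.56 FPKM in IR64 under drought and 5.82, 8.32 and 6.29 FPKM in IR64 in water. All 6 drought libraries lay below all 6 water libraries. XLOC_024288 was listed in no N22 drought library and had 4.01, 10.3 and 2.66 FPKM in N22 in water, and had 1.46, 0.998 and 1.45 FPKM in IR64 under drought and 5.5, 5.43 and 5.44 FPKM in IR64 in water. The groups did not overlap in either cultivar, and N22 water library 2 was the highest of the 12.

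XLOC_006705 had 3.14, 1.79 and 5.76 FPKM in N22 under drought and 11.5, 9.47 and 13.6 FPKM in N22 in water. In IR64 it had 4.15, 2.97 and 6.69 FPKM under drought and 12, 10.3 and 10.2 FPKM in water. XLOC_024285 had 5.35, 4.87 and 9.6 FPKM in N22 under drought and 16, 20.9 and 15.9 FPKM in N22 in water, and 5.26, 5.24 and 6.84 FPKM in IR64 under drought and 12.7, 15.4 and 11.7 FPKM in IR64 in water. For both rows the groups did not overlap, and the third drought library was the one nearest to water in each cultivar.

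The 16 rows lowered in N22 only had N22 changes of -1.71 to -1.03 (median -1.15) and IR64 changes of -0.99 to -0.12 (median -0.73), so that each of them was lower under drought on average in IR64 as well. XLOC_035460 had 0.237, 0.982 and 0.239 FPKM in N22 under drought and 3.32, 5.41 and 2.81 FPKM in N22 in water, and 1.19, 0.828 and 0.73 FPKM in IR64 under drought and 2.42, 1.58 and 3.6 FPKM in IR64 in water. XLOC_045075 had 1.03, 1.31 and 3.8 FPKM in N22 under drought and 6.37, 8.82 and 7.2 FPKM in N22 in water, and 1.11, 0.385 and 1.07 FPKM in IR64 under drought and 2.66, 2.33 and 2.88 FPKM in IR64 in water. Both had non-overlapping groups in IR64 too, at changes of -0.85 and -0.99. XLOC_035498 differed from them, with 1.44, 5.91 and 1.79 FPKM in N22 under drought and 6.68, 11.3 and 13.3 FPKM in N22 in water, while its IR64 groups, 8.79, 6.99 and 7.26 FPKM under drought and 5.5, 9.77 and 10.9 FPKM in water, overlapped.

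The most abundant row of all 124 was XLOC_029626, lowered in N22 only by the rule. It had 295, 243 and 549.6 FPKM in N22 under drought and 750.1, 571 and 789 FPKM in N22 in water, with change -1.03. IR64 libraries gave 462, 244 and 525 FPKM under drought and 878, 516 and 711 FPKM in water, with change -0.81. Drought library 3 of N22 and water library 2 of IR64 were the values nearest to the other treatment. The N22 groups were separate, and in IR64 1 drought library exceeded 1 water library.

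The 18 rows lowered in IR64 only had IR64 changes of -2.73 to -1.01 (median -1.20) and N22 changes of -1.0 to 0.94 (median -0.67). XLOC_019159 had 6.45, 9.4 and 15.7 FPKM in N22 under drought and 14.3, 15.5 and 23.1 FPKM in N22 in water, and 4.1, 2.7 and 3.4 FPKM in IR64 under drought and 10.2, 13.6 and 18.7 FPKM in IR64 in water. XLOC_014654 had 1.22, 2 and 4.43 FPKM in N22 under drought and 4.52, 13.9 and 2.24 FPKM in N22 in water, and 4.94, 0.844 and 3.69 FPKM in IR64 under drought and 11.6, 10.1 and 8.04 FPKM in IR64 in water. In both the groups were separate in IR64 and overlapped in N22. XLOC_006707, the most abundant of the class, had 109, 87.8 and 433 FPKM in N22 under drought and 50.7, 96.1 and 175 FPKM in N22 in water, and 19.3, 24.8 and 72.2 FPKM in IR64 under drought and 72.9, 139.6 and 172 FPKM in IR64 in water. Its N22 mean was higher under drought, 209.9 ± 193 FPKM against 107 ± 62.7 FPKM in water (SD, n = 3 each), but this rested on drought library 3 and the N22 groups overlapped.

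**Figure D3:**
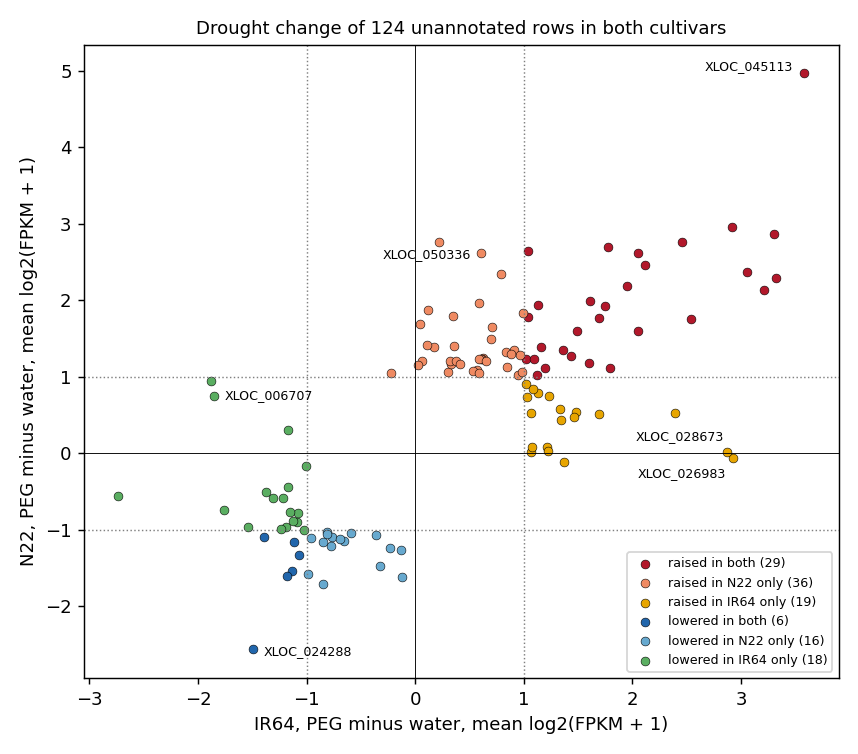
Drought change of each of the 124 rows in IR64 (horizontal) and N22 (vertical), each the mean log2(FPKM + 1) of 3 PEG libraries minus that of 3 water libraries, coloured by class, with dotted lines at the minimum of 1 either way. The rule leaves the central square empty; the upper left and lower right quadrants hold few rows, and none beyond the minimum in opposite directions, while XLOC_045113 stands alone at the upper right with 4.97 in N22 and 3.58 in IR64.

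The minimum of 1 cuts through a continuous range. The rows just inside it were XLOC_006692 (IR64 change -1.01), XLOC_014613 (IR64 change 1.02) and XLOC_037645 (IR64 change -1.02). XLOC_037645 had an N22 change of -1.0 and is counted as lowered in IR64 only. The rows just outside were XLOC_035582, XLOC_035546 and XLOC_030031, whose N22 changes all round to -1.0. For instance XLOC_035546 had 0.44, 0.731 and 0.864 FPKM in N22 under drought and 2.2, 2.53 and 2.28 FPKM in N22 in water, groups that did not overlap.

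Whether a response in one cultivar was also found in the other could be tested by choosing rows on one cultivar's libraries alone. The IR64 libraries by themselves took 67 unannotated rows as raised. In N22, 27 of these 67, counting a row below the filter as not called, rose (limma, adjusted p of at most 0.05 and a change of at least 1), which is 40.3% against 6.55% of all loci. The median N22 change of the 67 was 0.75, against -0.00 over all loci, and 49 had a positive one. Of the remainder, 14 rows were listed in no N22 library and could not move. The IR64 libraries also took 34 rows as lowered, of which 5 fell in N22 (14.7% against 5.17%), with a median N22 change of -0.56 and 9 rows in no N22 library. That count of 5 was 13 without N22 drought library 3 and 8 without N22 water library 2.

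With the cultivars exchanged, the N22 libraries alone took 99 unannotated rows as raised. In IR64, 24 of these 99 rose (24.2% against 4.35% of all loci). The median IR64 change was 0.59, against 0 over all loci, with 72 rows positive and 24 listed in no IR64 library. Of 28 rows taken as lowered by N22, 6 fell in IR64 (21.4% against 4.02%), with a median of -0.73 and 4 rows in no IR64 library. That count of 6 was 11 when the third drought libraries were left out. In all 4 tests the share called in the same direction exceeded that over all loci. The 2 cultivars share no library in these tests, but they share the estimate of spread, and libraries of the same number deviated together across groups, so the cultivars are not fully independent. Whether named loci of like level and spread, chosen in the same way, give like shares was not tested.

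The level of the 124 rows was also compared between the cultivars, averaged over both treatments. The rule did not take this contrast itself, but a row that met the level minimum, or changed, in only 1 cultivar can differ here through the choice. In limma, 13 of the 124 rows were higher and 9 lower in N22 than in IR64 (adjusted p of at most 0.05 and a difference of at least 1), which is 17.7% of them. Over all 24276 loci 5.39% were higher and 4.96% lower in N22, in sum 10.4%. Unannotated rows outside the 124 that met the same listing and level minimums numbered 922, of which 883 were tested. Among those 72 were higher and 63 lower in N22, or 15.3% of the rows tested. Of the 124 rows, 98 met the level minimum in both cultivars, and 7 of these were higher and 2 lower in N22, or 9.18%. Of the other unannotated rows, 654 met it in both cultivars and were tested, and 32 were higher and 26 lower, or 8.87%. Among rows that met the level minimum in both cultivars, the share called was thus near that of the other unannotated rows. The share over all loci held to that minimum was not computed. The median difference was 0.18 over the 124 rows, 0.29 over the raised and -0.03 over the lowered ones, against -0.00 over all loci.

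By class, 8 of the 36 rows raised in N22 only were higher in N22. Of the 19 raised in IR64 only, 2 were higher and 6 lower in N22. Of the 29 raised in both, 1 was higher. Of the 16 lowered in N22 only, 2 were higher and 1 lower in N22, and of the 18 lowered in IR64 only, 2 were lower. A rise in 1 cultivar alone itself adds to that cultivar's mean over treatments, so these counts partly follow from the classes. Between the water libraries alone, a comparison added after the data were seen, 7 of the 124 rows were higher and 7 lower in N22 (limma), against 5.07% and 4.84% of all loci.

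XLOC_045133 had 5.35, 5.81 and 3.42 FPKM in N22 under drought and 0.976, 2.34 and 1.63 FPKM in N22 in water, against 0.0752, 0.261 and 0.077 FPKM in IR64 under drought and 0.0688, 0.22 and 0.0709 FPKM in IR64 in water. Every N22 library exceeded every IR64 library, and the difference of the means over treatments was 1.78 ± 0.14 (log2 ± SE). The row met the level minimum in N22 only, so the difference is a description. XLOC_018793 had 11.2, 15.4 and 7.24 FPKM in N22 under drought and 3.04, 5.95 and 3.75 FPKM in N22 in water, and 0.985, 1.75 and 1.45 FPKM in IR64 under drought and 0.501, 0.961 and 1.34 FPKM in IR64 in water. All N22 libraries lay above all IR64 libraries, by 1.87 ± 0.20 (log2 ± SE, adjusted p = 1.9e-05, limma). It met the level minimum in both cultivars, and its N22 drought libraries add to its N22 mean. XLOC_041134 had 4.51, 10.5 and 4.25 FPKM in N22 under drought and 0.583, 0.827 and 1.33 FPKM in N22 in water, and 0.105, 0.184 and 0.0536 FPKM in IR64 under drought and 0.0483, 0.0364 and 0 FPKM in IR64 in water. Here too the cultivars did not overlap, and the difference was 1.76 ± 0.18 (log2 ± SE). It met the level minimum through N22 alone, so no test is given.

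In the other direction, XLOC_030247, lowered in IR64 only, had 0.145, 0.201 and 1.44 FPKM in N22 under drought and 0.734, 0.262 and 3.34 FPKM in N22 in water, and 3.92, 9.85 and 9.37 FPKM in IR64 under drought and 12.3, 21.9 and 30.8 FPKM in IR64 in water. Its 6 IR64 libraries all exceeded its 6 N22 libraries, a difference of -2.89 ± 0.36 (adjusted p = 8.37e-05, limma). The rule took it by its IR64 change. In N22 it met the level minimum in water only, at 1.45 ± 1.66 FPKM (SD, n = 3), a mean that rests on library 3. XLOC_028673, described above, averaged 0.0079 ± 0.00963 FPKM in N22 and 9.67 ± 9.82 FPKM in IR64 (SD, n = 6 each), a difference of -2.72 ± 0.17 (log2 ± SE). It met the level minimum through IR64 alone, so no test is given. XLOC_049681, lowered in N22 only by the rule, had 0, 0 and 86.5 FPKM in N22 under drought and 0, 13.7 and 52.4 FPKM in N22 in water. In IR64 it had 77.3, 61.9 and 72.2 FPKM under drought and 201, 41.9 and 223 FPKM in water. Its N22 change was -1.06 on the log2 scale, but its N22 mean was higher under drought. The means were 28.8 ± 50 FPKM under drought and 22 ± 27.1 FPKM in water (SD, n = 3 each), and the N22 groups overlapped. It had the largest cultivar difference, -3.88 ± 1.24 (adjusted p = 0.0345, limma), but also 3 N22 libraries at 0, and N22 drought library 3 was above 4 of the 6 IR64 libraries. The rule took it by its N22 change, which rests on the 0s in N22 drought libraries 1 and 2. The same 0s lower its N22 mean over treatments, so this p is not independent of the choice, and the difference is a description. Its call was lost in 9 of the 12 fits that left out 1 library, with adjusted p of 0.0536 to 0.0844 (limma). Its FPKM came in coarse steps, which are given below, and its 86.5 FPKM in N22 drought library 3 was 1 step. A step was worth 72.2 FPKM in IR64 drought library 3 and 12.4 to 19.3 FPKM in the other libraries with a step. The 1 step of 86.5 FPKM may therefore stand for more than 1 fragment.

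**Figure D4:**
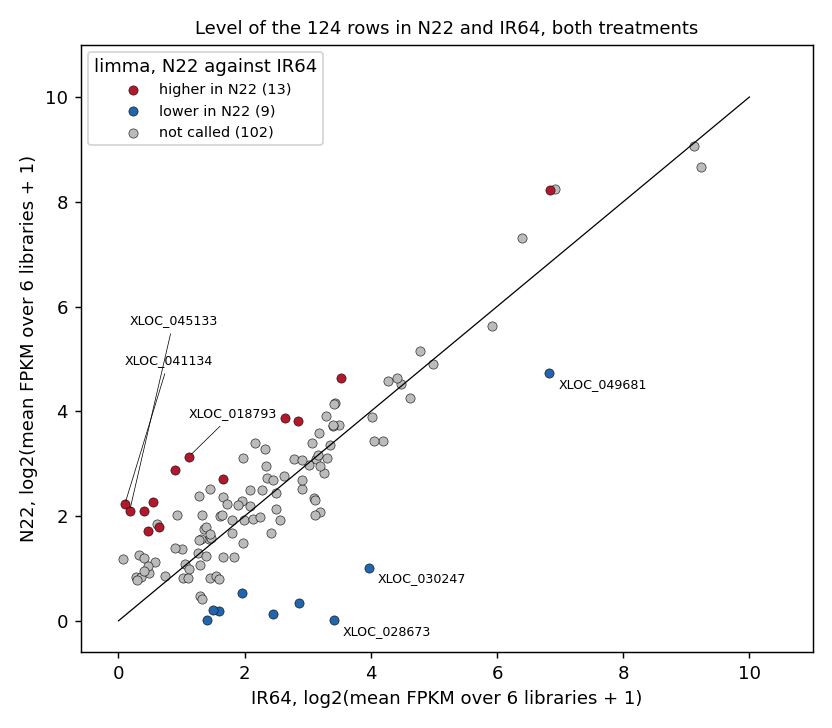
Mean level of each of the 124 rows over the 6 libraries of IR64 (horizontal) and of N22 (vertical), as log2(mean FPKM + 1), with the line of equal level. Red points (13) were called higher and blue points (9) lower in N22 by limma on log2(FPKM + 1), grey points (102) were not called, and most rows lie close to the line.

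The assembly numbers give the only hint of position in these values. Within a chromosome, the numbers climbed with the order of the named loci in 2 successive runs (99.5% of 35794 steps went upwards), followed by another run, the third, of 1396 unannotated and 3 named rows. What separates the runs is not given in the sources used here. Of the 124 rows, 26 stood in a first run, 24 in a second, 73 in the third, and 1 (XLOC_057676) in none. The 124 rows made up 9.01% of the rows meeting the listing and level minimums in the first 2 runs, and 15% in the third runs. The third-run rows varied more between replicates. The median SD within groups was 0.313 (log2) over the 488 such rows of the third runs, against 0.208 over those of the first 2, and their median level was 1.82 FPKM against 2.74 FPKM. In the third runs 46 of the 124 rows were raised and 27 lowered, and in the first 2 runs 37 were raised and 13 lowered. The part that this wider spread plays in passing the minimum was not tested.

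By chromosome, as inferred from the blocks of assembly numbers, the counts ran from 6 rows on chromosomes 5, 9 and 10 to 18 on chromosome 4. The third runs hold almost no named rows, so the chromosome of their rows is assumed from the runs before them. All rows meeting the listing and level minimums were not counted by chromosome. Chromosome 5 was the one with more lowered (5) than raised rows (1). Of the 124 rows, 12 formed 6 pairs with consecutive numbers. In 4 of these pairs both rows were raised, among them XLOC_049684 and XLOC_049685. XLOC_049684 had 1.4, 2.47 and 0.634 FPKM in N22 under drought and 0.155, 0 and 0.151 FPKM in N22 in water, and 4.5, 5.21 and 1.2 FPKM in IR64 under drought and 0.305, 0.122 and 0.236 FPKM in IR64 in water. XLOC_049685 had 5.5, 8.13 and 1.31 FPKM in N22 under drought and 1.02, 0.78 and 0 FPKM in N22 in water, and 11.1, 13 and 3.33 FPKM in IR64 under drought and 1.04, 0.826 and 0 FPKM in IR64 in water. IR64 drought library 2 was the highest in both rows. Whether the rows of a pair belong to 1 transcript cannot be read from these values.

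XLOC_054074, given above, was followed by XLOC_054075, with 0.913, 6.01 and 1.06 FPKM in N22 under drought and 0 FPKM in all 3 N22 water libraries, and 1.85, 7.61 and 1.85 FPKM in IR64 under drought and 0, 0.685 and 0.862 FPKM in IR64 in water. The second drought library was the highest in both cultivars for both rows. The pair XLOC_018277 and XLOC_018278 was listed in no N22 water library. XLOC_018277 had 2.39, 2.14 and 0.217 FPKM in N22 under drought, and 0.422, 1.07 and 0.214 FPKM in IR64 under drought, and was listed in no water library of IR64. XLOC_018278 had 3.46, 16.7 and 2.13 FPKM in N22 under drought, and 0, 7.18 and 3.45 FPKM in IR64 under drought and 3.2, 0 and 0 FPKM in IR64 in water. In the other two pairs the rows went opposite ways, as with XLOC_035497, raised in both cultivars, and XLOC_035498, lowered in N22.

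For the 50 rows in the first 2 runs, the nearest named loci in number were 97, of which 60 were abundant enough to be tested. In N22, 9 of these 60 changed under drought (15%), against 11.7% of all loci and 11.9% of the 598 tested neighbours of the other unannotated rows. In IR64, 6 of 60 changed (10%), against 8.37% and 7.69%. Both shares, taken over either direction, are near the background. The count of 9 in N22 was 4 of 32 with the nearer side only and 5 of 46 with neighbours 1 number away. Neighbours of raised rows (45 tested) held 3 that rose and 3 that fell in N22, and 3 that fell in IR64. Neighbours of lowered rows (15 tested) held 3 that fell and 0 that rose in each cultivar. Over all loci 6.55% rose and 5.17% fell in N22, and 4.35% rose and 4.02% fell in IR64. These small counts by direction were not tested.

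Of the 60 tested neighbours, 4 were called in both cultivars, and all 4 fell. The share of all loci called in both cultivars was not computed, so nothing is read from this count. LOC_Os03g56869, 1 number below XLOC_029626, had 11.4, 9.13 and 20.1 FPKM in N22 under drought and 30.6, 39.5 and 35.2 FPKM in N22 in water, and 12.9, 10.9 and 13.9 FPKM in IR64 under drought and 25.8, 31.4 and 32.2 FPKM in IR64 in water. Its changes were -1.38 ± 0.23 in N22 (log2 ± SE, adjusted p = 0.00178) and -1.18 ± 0.23 in IR64 (adjusted p = 0.005, limma). The unannotated row was also lower under drought, at a higher FPKM. LOC_Os04g48870, 1 number above XLOC_032223 (lowered in IR64 only), had a change of -1.58 ± 0.39 in N22 (adjusted p = 0.0102) and of -1.91 ± 0.39 in IR64 (adjusted p = 0.00636, limma).

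The remaining pair of neighbours fell in both cultivars. LOC_Os12g34510, 4 numbers from XLOC_018277 and 3 from XLOC_018278, had 12.7, 17.3 and 41 FPKM in N22 under drought and 58.7, 61.6 and 69.3 FPKM in N22 in water, and 9.56, 13.1 and 25.3 FPKM in IR64 under drought and 54.5, 54.6 and 38.8 FPKM in IR64 in water. LOC_Os08g13350, 2 numbers from XLOC_050336, had 14.7, 10.6 and 20.6 FPKM in N22 under drought and 35, 28.9 and 30.1 FPKM in N22 in water, and 16.3, 13 and 18.5 FPKM in IR64 under drought and 37.4, 30.7 and 33.6 FPKM in IR64 in water. The water libraries of both loci exceeded the drought libraries in either cultivar. Their changes were -1.55 ± 0.40 in N22 and -1.66 ± 0.40 in IR64 for LOC_Os12g34510, and -1.03 ± 0.20 and -1.05 ± 0.20 for LOC_Os08g13350 (log2 ± SE, adjusted p of 0.00363 to 0.0126, limma). Of the unannotated rows near them, XLOC_018277 and XLOC_050336 were above the minimum change in N22 only, and both had a change of 0.61 in IR64. XLOC_018278 was above it in both cultivars, but its IR64 drought and water libraries overlapped. The products of these loci are not given in the files, and a distance in bases cannot be read from assembly numbers.

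The FPKM of many of these rows came in coarse steps. In 338 of 2539603 pairs of unannotated rows compared, the values stood in whole-number ratios in every library that listed both, at a tolerance of 2e-05 on the log ratio with ratios up to 40 and at least 6 shared libraries. These pairs joined 468 rows in 192 sets, and 31 of the 124 rows were in 21 of the sets, 30 of them from the third runs. Of the 331 listed values of these 31 rows, 305 could be written as a whole multiple of the largest step common to the set in that library, and 26 had no such step. A step was worth 0.0522 to 86.5 FPKM, depending on set and library. The highest number of steps of a row in any library had a median of 12 over the 31 rows and ranged from 4 to 43, and in 10 of them it was at most 10. The number of fragments may be a multiple of the steps given, and that multiple can differ between libraries. The highest numbers above therefore describe steps only, and a low one does not show few fragments. Numbers of steps are otherwise not compared between libraries.

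XLOC_014661, raised in both cultivars, is an example. It had 64.7, 65.8 and 17 FPKM in N22 under drought and 7.49, 11.8 and 7.57 FPKM in N22 in water, and 62.6, 83.4 and 24.3 FPKM in IR64 under drought and 3.94, 6.14 and 3.81 FPKM in IR64 in water. In steps this was 16, 20 and 3 in N22 under drought and 2, 4 and 1 in N22 in water, and 15, 30 and 6 in IR64 under drought and 1, 2 and 1 in IR64 in water. The step of its set was worth 7.57 FPKM in N22 water library 3, against 2.78 to 5.67 FPKM in the other libraries. XLOC_057676 had 4, 12 and 3 steps in N22 under drought and 1, 1 and 0 in N22 in water, and 6, 10 and 3 in IR64 under drought and 0 in all 3 IR64 water libraries. XLOC_024288 had 0 steps in all 3 N22 drought libraries and 3, 10 and 2 in N22 in water, and 1, 1 and 1 in IR64 under drought and 4, 5 and 4 in IR64 in water. XLOC_049681 had 0, 0 and 1 steps in N22 under drought and 0, 1 and 3 in N22 in water. In IR64 it had 4, 5 and 1 under drought and 11, 3 and 13 in water. A step of its set was worth 86.5 FPKM in N22 drought library 3 and 72.2 FPKM in IR64 drought library 3. In the other libraries with a step it was worth 12.4 to 19.3 FPKM. XLOC_006707, of the same set, had 1, 2 and 1 steps in IR64 under drought and 4, 10 and 10 in IR64 in water. In IR64 drought library 3 both rows of the set had the same value, which counts as 1 step whatever the number of fragments. That 1 is therefore not set against the numbers of the other libraries.

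The 124 rows held 0.230% to 0.491% of the summed FPKM of a library. The unannotated rows outside them held 2.82% ± 0.279 in N22 under drought and 2.91% ± 0.185 in N22 in water (SD, n = 3 each; two-sided exact permutation p = 0.8). In IR64 they held 2.63% ± 0.0811 under drought and 2.66% ± 0.117 in water (SD, n = 3 each; exact permutation p = 0.9). With 3 against 3 libraries the smallest p possible is 0.1, so no change in this share could be detected, whatever its size. Between cultivars the shares were 2.86% ± 0.218 in N22 and 2.64% ± 0.0911 in IR64 (SD, n = 6 each; exact permutation p = 0.0584, smallest possible 0.00216), a difference that reversed to -0.0716 percentage points without the 10 most abundant rows (exact permutation p = 0.141). Libraries listed 30625 to 32107 rows with FPKM summing to 684525 to 761822.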

How the data were processed

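RNA sequencing of seedlings gave 12 libraries, which were grouped and numbered by their GEO labels. The deposited files hold FPKM, which the authors obtained with Cufflinks 2.2.1 from a reference-based assembly of TopHat 2.1.1 alignments, per the labels and the design text. The design text also names NGSQC Toolkit 2.3.3, the RGAP 7.0 rice genome, bowtie 2.3.3.0 and, for a value missing in 1 replicate, missForest imputation. Whether the deposited values hold imputed ones is not given in the sources used here. FPKM are no counts, the sequencing depth behind them is unknown, and no interval for counting error could be given. No further scaling was applied.

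Rows that share a name were added up, which left 39093 loci, and a row missing from a library counted as 0. A locus was fitted where at least 2 of 3 replicates of a group reached 1 FPKM, which 24276 did. The fit was limma 3.58.1 (R 4.3.3) on group means of log2(FPKM + 1) over the 12 libraries, with an intensity trend, two-sided moderated tests and Benjamini-Hochberg adjustment over these loci. Changes on this scale understate those of low rows. Calls needed both an adjusted p no higher than 0.05 and a log2 change of 1 or more. The fit was tested on simulated data. Tables were handled in Python 3.11.15 with pandas 2.3.3 and numpy 2.4.6 and in R with the data.table package, release 1.17.8, and figures drawn with matplotlib 3.10.9. Shares per library were compared by two-sided exact permutation tests.

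The rows named were those with the largest non-overlapping change in each class (4 for classes of both cultivars, 3 for 1 cultivar), the 3 most abundant raised and lowered, the 3 with the largest called cultivar difference each way, the 3 on each side of the minimum, and named neighbours called in both cultivars. Rows shown for consecutive numbers and for steps were chosen after their values were seen, and so was the search for steps. The rows, lists and tests were chosen with earlier results of these data known.

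Same-numbered libraries deviated together from their group means (12 of 12 correlations above 0.1, from 0.118 to 0.595), so the numbers in the labels were taken to pair the samples. The main fits and the permutation tests did not use this pairing, and a fit with a replicate block was an alternative. The fits were also repeated with a pseudocount of 0.1, other filters and scalings, array weights or no trend, calls by the adjusted p alone, other listing and neighbour rules, and with libraries left out.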

Additional observations from a re-analysis of the deposited data

How the results depend on the processing

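The number of rows taken by the rule depended on its settings. It was 293 with a pseudocount of 0.1, 76 with a mean of at least 5 FPKM or with listing in all 12 libraries, 46 with a change of at least 1.5, 124 and 125 under median-of-ratios and quantile scaling, and 105 to 163 without 1 library. Of the 13 rows higher and 9 lower in N22, the counts were 21 and 19 by the adjusted p alone. Among the 98 rows with the level minimum met in both cultivars they were 7 and 2 (the setting removes rows, and was chosen after seeing the data). Between water libraries alone 7 were higher, among rows listed in all 12 libraries 2 were lower (fewer rows are tested), and with a pseudocount of 0.1 15 were lower. Without 1 library they were 9 to 16 and 7 to 10. The 27 rows that rose in N22 after choice in IR64 were 17 among rows listed in all 12 libraries and 19 to 29 without 1 library. The 5 that fell were 10 by the adjusted p alone and with a pseudocount of 0.1, 17 with array weights, 13 without the third drought libraries, and 5 to 13 without 1 library. The 24 that rose in IR64 after choice in N22 were 38 with a pseudocount of 0.1 and 18 to 32 without 1 library. The 6 that fell were 10 with array weights, 11 without the third drought libraries, and 4 to 9 without 1 library. Called neighbours in N22 were 4 with the nearer side alone, 5 at distance 1, and 6 to 12 without 1 library, and in IR64 5 to 7. The cause of these shifts was not tested, where the setting itself does not remove rows.

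The replicate block gave 13 higher and 10 lower rows in N22, 27 and 5 in N22 after choice in IR64, 27 and 6 in IR64 after choice in N22, and 9 and 7 neighbours in N22 and IR64, and no count moved by over 1.5 times. The share outside the 124 rows, N22 minus IR64, reversed to -0.0716 without the 10 most abundant rows, and ranged from 0.167 to 0.273 without 1 library, with p = 0.0152 without N22 drought library 1 and p = 0.0433 without N22 drought library 2, N22 water library 1 or IR64 water library 2 (exact permutation). Its drought difference ranged from -0.255 to 0.0103 in N22, turning positive without drought library 1, and from -0.0749 to 0.0402 in IR64, turning positive without drought library 2 (0.0175) or water library 2 (0.0402). The difference of XLOC_049681 missed the threshold with no filter (adjusted p = 0.0567, limma). Depth is unknown, and 3 libraries a group limit all tests.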
